A study of Mus musculus with 24 samples.

Results

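Regulators of G protein signaling (RGS proteins) switch off G protein signals: they speed up GTP hydrolysis on the G alpha subunit, so that it returns to its inactive form. Subfamilies of this family work in different retinal cells. In rods and cones Rgs9 bound to Gnb5 and to its anchor Rgs9bp ends the light response, in ON bipolar cells Rgs7 and Rgs11 act on the G protein that follows the metabotropic glutamate receptor Grm6, and Rgs10 is abundant in microglia. Rgs4 is a neuronal RGS protein that acts on Gi/o and Gq alpha subunits. 10 RGS genes were followed here, Rgs2, Rgs4, Rgs8 and Rgs16 of the R4 subfamily, Rgs7, Rgs9 and Rgs11 of the R7 subfamily, Rgs10 of the R12 subfamily, and Rgs17 and Rgs20 of the RZ subfamily. The set was chosen by the measured fall of Rgs4 after blast at 5 weeks, its members were taken by symbol, and all 10 were found among the 14922 genes measured at 1 week and the 15920 measured at 5 weeks.

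The retinas came from adult male mice of the C57BL/6J strain that met a pressure wave inside a closed blast chamber, a model of blast-induced traumatic brain injury (bTBI), and from sham-treated mice that were handled alike without the blast. 6 bTBI and 6 sham retinas were collected at 1 week (8 days in the labels), and 6 bTBI and 6 sham retinas at 5 weeks, 24 in all, each from the eye on the side of exposure. The RNeasy Plus Mini Kit served for RNA of the 1-week retinas and the RNeasy Mini Kit for that of the 5-week retinas, so kit and timepoint cannot be told apart. The labels call the cell type retinal ganglion cell (RGC), but rod genes dominated every library (the 7 rod markers summed to between 28740 and 41790 CPM, and the 14 RGC markers to between 604 and 2282 CPM), so the values are those of whole retina.

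Each library held between 14301989 and 25158638 reads in the genes of its table, and levels are given in CPM, the reads of a gene scaled to a common library size. 3 bTBI retinas at 1 week stood apart. Lens genes summed to 3286 CPM in replicate 5 and 6426 CPM in replicate 6, against 36.5 to 330 CPM in the other bTBI retinas and 10.5 to 599 CPM in sham retinas. The oligodendrocyte gene Mbp was at 2531 CPM in replicate 3, against 35.7 to 139 CPM in the other bTBI retinas and 38.3 to 42.0 CPM in sham retinas. For the 10 RGS genes, a 1-week fold change that turned or moved by over 1.5 times without the 2 lens-rich retinas or without replicate 3 is given with both values.

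The R4 proteins are small, and several share a short N-terminal feature that bears on their amount in the cell. As background, a cysteine directly after the initiator methionine makes RGS4, RGS5 and RGS16 substrates of an oxygen-dependent degradation pathway, and RGS2 and RGS8 do not carry it there. The first bases of the coding sequence are shown for the 4 R4 members of the set and for Rgs5, with codon 2 in capitals. They show which of these genes, like Rgs4, have a cysteine codon there (GENCODE M21 on GRCm38, 5′ to 3′ on the coding strand). TGC and TGT both code for cysteine.
Rgs4 (chr1:169747494-169747523, minus strand): atgTGCaaaggacttgcaggtctgccggct
Rgs16 (chr1:153740469-153740498, plus strand): atgTGCcgcaccctagccaccttccccaac
Rgs5 (chr1:169655578-169655607, plus strand): atgTGTaagggactggcagctctgccgcac
Rgs2 (chr1:144004089-144004118, minus strand): atgCAAagtgccatgttcctggctgtccag
Rgs8 (chr1:153667928-153667953, plus strand): atgGCTgccttactgatgccacgcag
For Rgs2 and Rgs8 other annotated transcripts have a different codon 2, and for Rgs4, Rgs16 and Rgs5 every complete coding transcript has the one shown. The values that follow are RNA levels, and protein was not measured here.

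Whether the loss of Rgs4 RNA was already present at 1 week was asked first, in retinas whose values the rule for the set did not use. Earlier results of these data were known when the set was chosen. Rgs4 (ENSMUSG00000038530.11, chr1:169741477-169747642, minus strand) fell to 72.4 ± 15.99 CPM in bTBI retinas, against 129 ± 9.84 CPM in sham retinas (SD, n = 6 each). The 6 bTBI retinas, replicates 1 to 6, held 66.5, 101.6, 71.2, 75.2, 54.0 and 65.7 CPM of Rgs4, against 142.8, 136.2, 118.5, 130.2, 126.0 and 117.9 CPM in the 6 sham retinas. The groups did not overlap, and bTBI replicate 2 stood nearest to the sham retinas. The log2 fold change was −0.84 ± 0.11 (SE), 56.3% of the sham level (limma, adjusted p = 0.000325 over all genes). Of the 14922 genes, 8 had a lower fold change. Without both lens-rich bTBI retinas the fold change was −0.72 (adjusted p = 0.00253), and without bTBI replicate 3 it was −0.84 (adjusted p = 0.000941).

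At 5 weeks, the contrast that chose the genes and is therefore given with no test, Rgs4 again lay apart. The bTBI retinas held 36.6, 38.5, 43.6, 50.3, 40.5 and 32.9 CPM of Rgs4, against 66.9, 74.9, 70.2, 67.1, 67.4 and 63.3 CPM in sham retinas. The means were 40.4 ± 6.03 CPM in bTBI retinas and 68.3 ± 3.91 CPM in sham retinas, a log2 fold change of −0.75 ± 0.071 (SE) and 59.1% of the sham level. The folds at 1 and 5 weeks stand side by side here, and the difference between the timepoints was not tested. In sham retinas Rgs4 itself was at 53.1% at 5 weeks of its 1-week level, with no overlap between the 12 retinas. This is a difference between kits as well as times.

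**Figure D1:**
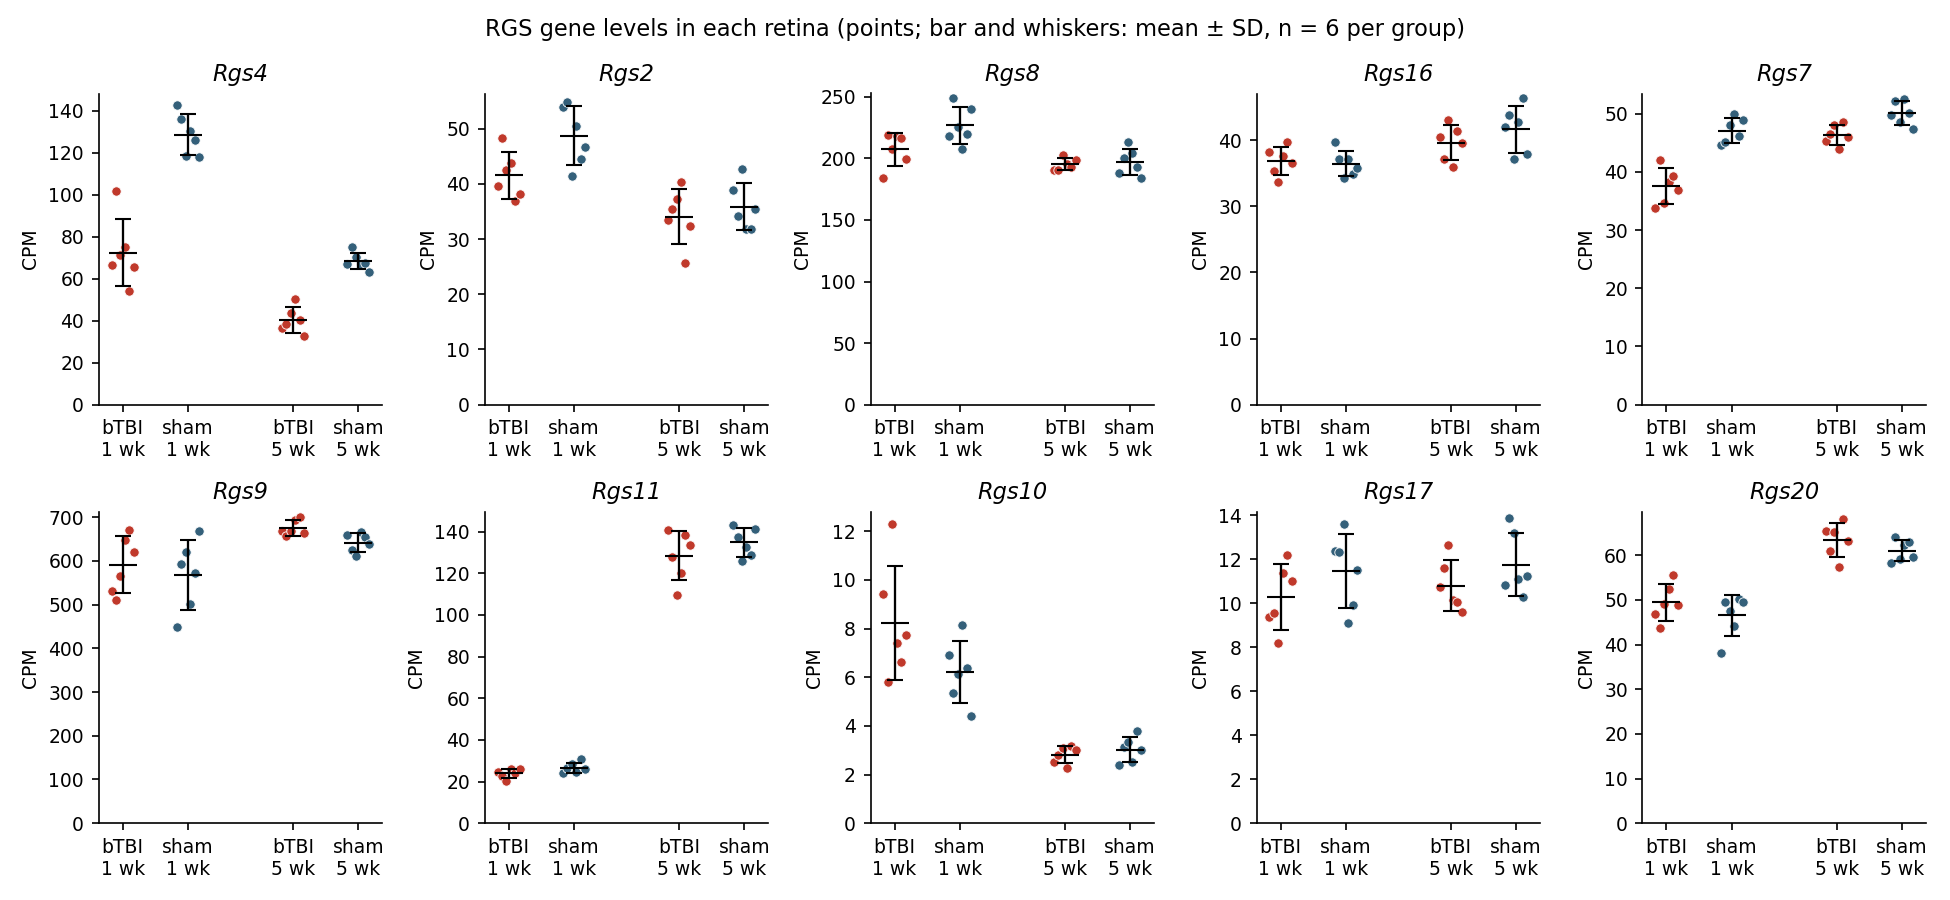
Levels of the 10 RGS genes in CPM (y axes, from 0) in every retina, with bTBI left of sham at 1 week and at 5 weeks. Points are retinas and black marks are mean ± SD (n = 6 per group). Rgs4 lies lower in all bTBI retinas at both timepoints, at 54.0 to 101.6 CPM against 117.9 to 142.8 CPM in sham retinas at 1 week, and Rgs7 at 1 week is the other panel in which bTBI and sham do not overlap.

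Among the 10 genes, 2 were lower past the threshold of adjusted p under 0.005 at 1 week, Rgs4 and Rgs7, and 0 were higher. Over all 14922 genes 0.985% were called lower and 1.27% higher (limma; 2575 genes had an unadjusted p under 0.05). In the same 2 genes every bTBI retina lay below every sham retina, which held for 2.25% of all genes. The median log2 fold change of the 10 genes was −0.14, beside −0.00024 for all genes, and the fold change was below 0 in 6 of 10, beside 50.1% of all genes. At 5 weeks the count, given as a description of the contrast that chose the set, was 1 of 10, Rgs4, lower, where 0.823% of the 15920 genes were called lower and 0.0126% higher. It was also the one without overlap, against 1.75% of all genes. The median was −0.07 at 5 weeks beside 0.0012 for all genes. Nothing is read from the 5-week counts.

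The other R4 members did not pass the test at 1 week. Rgs2, which acts mainly on Gq alpha subunits, ranged over 36.9 to 48.3 CPM in bTBI retinas (median 41.1), against 41.5 to 54.9 CPM in sham retinas (median 48.7) at 1 week. All 6 bTBI retinas lay below the sham mean, but the groups overlapped, and the log2 fold change of −0.22 ± 0.078 did not pass (limma, adjusted p = 0.124). Rgs8, an R4 member of central neurons, was at 207 ± 13.6 CPM in bTBI retinas and 227 ± 15.4 CPM in sham retinas (log2 fold change −0.13 ± 0.055, adjusted p = 0.229). Rgs16, which shares the TGC codon with Rgs4, was at 36.9 ± 2.16 CPM in bTBI retinas and 36.5 ± 1.94 CPM in sham retinas (log2 fold change 0.01 ± 0.054, adjusted p = 0.937). It was −0.0097 without the lens-rich retinas and 0.04 without bTBI replicate 3 (adjusted p = 0.972 and 0.849). For these 3 genes the retinas of the groups overlapped at 1 week. At 5 weeks their log2 fold changes were −0.08 ± 0.085 for Rgs2, −0.01 ± 0.035 for Rgs8 and −0.07 ± 0.056 for Rgs16, and bTBI and sham retinas overlapped for each.

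Of the R7 members, Rgs7, expressed in ON bipolar cells and in other retinal neurons, was lower at 1 week. The bTBI retinas held 33.8, 42.1, 34.6, 38.3, 39.3 and 36.9 CPM of Rgs7, against 44.6, 45.1, 48.0, 49.9, 46.2 and 48.8 CPM in sham retinas. No bTBI retina reached the lowest sham retina. The means were 37.5 ± 3.09 CPM in bTBI retinas and 47.1 ± 2.12 CPM in sham retinas (79.6%), and the log2 fold change was −0.32 ± 0.058 (limma, adjusted p = 0.00263). This call lay close to the threshold. It was lost when the 2 lens-rich bTBI retinas were left out (adjusted p = 0.0137) and when any of bTBI replicates 1, 3, 4 and 6 or sham replicates 2 to 6 was left out (adjusted p 0.00561 to 0.00865), while the log2 fold change stayed between −0.36 and −0.30. At 5 weeks Rgs7 was at 46.4 ± 1.70 CPM in bTBI retinas and 50.1 ± 2.004 CPM in sham retinas (log2 fold change −0.11 ± 0.040), and the groups overlapped.

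The photoreceptor member Rgs9 had the highest level of the set per kilobase of exon. At 1 week it ranged over 512 to 671 CPM in bTBI retinas (median 593), against 448 to 669 CPM in sham retinas (median 582), and the ranges overlapped almost fully (log2 fold change 0.06 ± 0.093, limma, adjusted p = 0.813). Without the lens-rich retinas it was −0.0016 (adjusted p = 0.996). At 5 weeks Rgs9 was at 675 ± 17.5 CPM in bTBI retinas and 642 ± 21.2 CPM in sham retinas. The log2 fold change at 5 weeks was 0.07 ± 0.029, with 4 bTBI retinas above every sham retina. The 7 rod markers, among them Nrl and Gnat1, had 0 calls at either timepoint, with medians of 0.05 at 1 week and 0.05 at 5 weeks on the log2 scale.

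Rgs11, the other R7 member of ON bipolar cells, did not pass at 1 week. It was at 23.97 ± 2.20 CPM in bTBI retinas and 26.6 ± 2.46 CPM in sham retinas (log2 fold change −0.15 ± 0.074, limma, adjusted p = 0.334), and all 6 bTBI retinas lay below the sham mean. At 5 weeks it was at 128 ± 11.8 CPM in bTBI retinas and 135 ± 6.95 CPM in sham retinas (log2 fold change −0.07 ± 0.051). The bipolar markers, Grm6 and Trpm1 among them, had 0 of 8 called at either timepoint, with medians of −0.07 at 1 week and 0.04 at 5 weeks.

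The level of Rgs11 differed far more between the timepoints than between bTBI and sham. Sham retinas held 5.07 times as much at 5 weeks as at 1 week, and 220 of 14455 genes had a higher ratio. The exons of Rgs11 overlap those of Arhgdig on the opposite strand, and whether reads were counted by strand is not stated. Arhgdig was at 5.21 CPM in sham retinas at 5 weeks and 9.38 CPM at 1 week, and its part in the Rgs11 values was not tested. Rgs9bp, the anchor of Rgs9, was also higher in sham retinas at 5 weeks (219% of the 1-week level), while Rgs10 (48.5%) and Rgs5 (45.7%), which is known from pericytes, were lower, each with no overlap. The kits cannot be told apart from time in any of these ratios.

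Rgs10, the R12 member that limits inflammatory activation of microglia, was scarce in whole retina. At 1 week the bTBI retinas held 9.43, 5.80, 12.3, 7.41, 6.62 and 7.75 CPM of Rgs10, against 6.92, 5.36, 6.13, 8.15, 6.36 and 4.41 CPM in sham retinas. The bTBI retina with the most Rgs10 was replicate 3, which also had the highest sum of microglial markers and the oligodendrocyte signal. The groups overlapped, and the log2 fold change of 0.34 ± 0.15 did not pass (limma, adjusted p = 0.275). Without replicate 3 it was 0.22 (adjusted p = 0.52). At 5 weeks Rgs10 was at 2.81 ± 0.34 CPM in bTBI retinas and 3.02 ± 0.52 CPM in sham retinas (log2 fold change −0.07 ± 0.10).

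Of the RZ members, which act mainly on Gi/o and Gz alpha subunits, neither passed. Rgs17 ranged over 8.18 to 12.2 CPM in bTBI retinas (median 10.3), against 9.10 to 13.6 CPM in sham retinas (median 11.9) at 1 week (log2 fold change −0.14 ± 0.11, limma, adjusted p = 0.571). The fold change of Rgs17 was −0.23 without the lens-rich retinas (adjusted p = 0.375) and −0.09 without bTBI replicate 3 (adjusted p = 0.818). Rgs20 ranged over 43.7 to 55.6 CPM in bTBI retinas (median 49.0), against 38.2 to 50.3 CPM in sham retinas (median 48.5). Its log2 fold change was 0.09 ± 0.073 (adjusted p = 0.628) and 0.05 without the lens-rich retinas (adjusted p = 0.856). Both pairs of ranges overlapped. At 5 weeks the log2 fold changes were −0.11 ± 0.081 for Rgs17 and 0.05 ± 0.043 for Rgs20. Exons of Rgs20 overlap those of Atp6v1h on the opposite strand, those of Rgs8 overlap Gm29529, and those of Rgs16 overlap Gm28513.

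**Figure D2:**
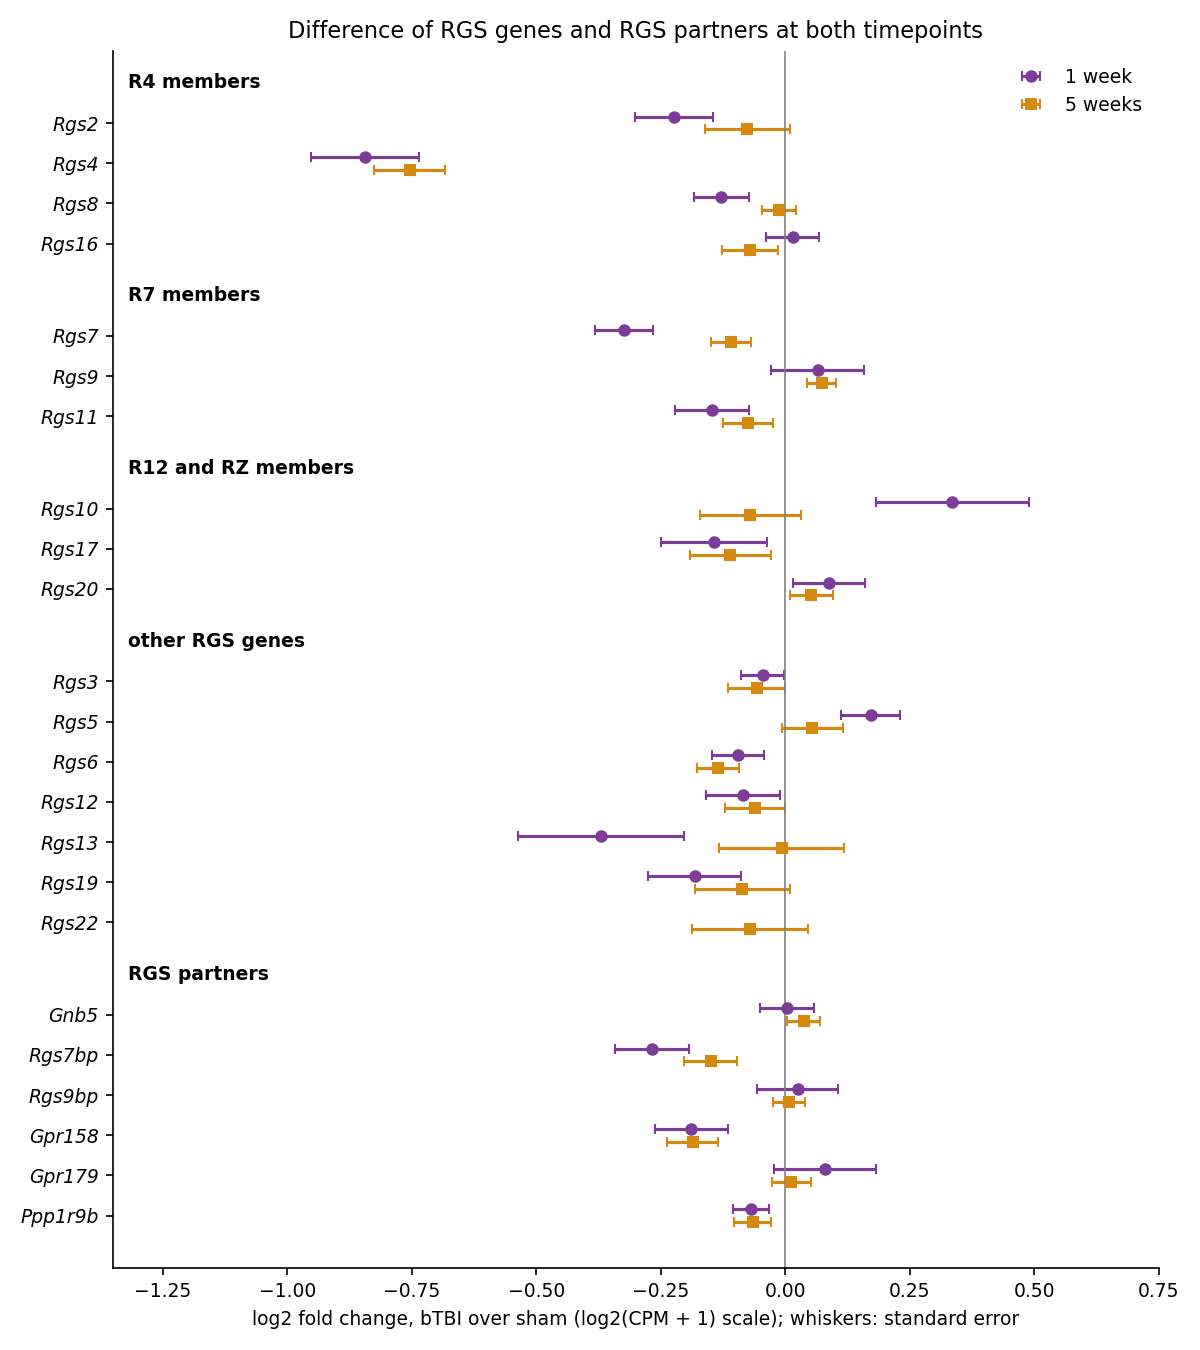
Log2 fold change of bTBI over sham on the log2(CPM + 1) scale (x axis) with its standard error for the 10 RGS genes by subfamily, the other measured RGS genes and the RGS partners, circles for 1 week and squares for 5 weeks. Rgs4 lies at −0.84 and −0.75, to the left of every other gene drawn, and the remaining 5-week values lie between −0.19 and 0.07.

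Levels between genes were compared per kilobase of merged exon. In sham retinas at 1 week the order was Rgs9 (88.8 CPM per kb), Rgs4 (41.5), Rgs8 (23.5), Rgs16 (15.6), Rgs2 (13.4), Rgs20 (11.0), Rgs7 (7.82), Rgs11 (6.33), Rgs10 (3.64) and Rgs17 (1.38). Neighbours in that order overlapped between Rgs16 and Rgs2 and between Rgs2 and Rgs20, and the other neighbours did not overlap. In bTBI retinas at 1 week Rgs4 stood at 23.4 ± 5.16 CPM per kb and overlapped with Rgs8 at 21.5 ± 1.41 CPM per kb (SD, n = 6 each), from which it was separate in sham retinas. At 5 weeks Rgs4 was 6th of 10 in bTBI retinas, at 13.03 CPM per kb, and 3rd in sham retinas, at 22.1 CPM per kb, where Rgs11 (32.1 CPM per kb) had moved above it. In sham retinas Rgs4 was separate from Rgs11 above it and overlapped with Rgs8 (20.4 CPM per kb) below it. In bTBI retinas it overlapped with both neighbours, Rgs20 (14.96 CPM per kb) and Rgs2 (9.40 CPM per kb).

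The RGC markers are named here because Rgs4 is neuronal. At 1 week 12 of 14 were called lower, beside 0.985% of all genes. All 14 had a fold change below 0, with a median log2 fold change of −0.54. At 5 weeks 14 of 14 were called lower, beside 0.823% of all genes, with a median of −0.64. In the same bulk libraries fewer cells of a type and less RNA per cell cannot be told apart. The summed RGC markers ranged over 1057 to 1717 CPM in bTBI retinas, against 1900 to 2282 CPM in sham retinas at 1 week, and over 604 to 916 CPM in bTBI retinas, against 1081 to 1193 CPM in sham retinas at 5 weeks. As with Rgs4, bTBI replicate 2 at 1 week was the highest of its group and replicate 5 the lowest. The amacrine, cone and bipolar markers had 0 of 8 called in each list at either timepoint. Of 8 macroglial markers 2 were called higher at 1 week, beside 1.27% of all genes, and 0 at 5 weeks. The 2 were Gfap, an intermediate filament of reactive glia (log2 fold change 2.51, limma, adjusted p = 0.00273, no overlap), and Vim, another intermediate filament (log2 fold change 0.78, adjusted p = 0.00383, with overlapping groups). The macroglial markers summed to 6619 to 7845 CPM in bTBI retinas, against 6326 to 7541 CPM in sham retinas at 1 week. Their part in the RGS values was not tested.

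Whether Rgs4 fell with the RGC markers or beyond them was asked with the log2(CPM + 1) of Rgs4 minus the mean of the 14 RGC markers in each retina. At 1 week this difference was 0.27, 0.44, 0.39, 0.37, 0.23 and 0.29 in bTBI retinas, against 0.55, 0.63, 0.52, 0.65, 0.54 and 0.53 in sham retinas. The groups did not overlap, and the means differed by −0.24 (exact permutation test, two-sided, p = 0.00216, the smallest that 924 splits of 6 against 6 can give). Rgs4 was picked for its fall at 5 weeks, and the markers were listed with earlier results of these data known. The p therefore holds for this list only and cannot decide whether Rgs4 fell beyond RGC genes in general. Without both lens-rich retinas the difference was −0.20 (exact permutation p = 0.00476, the smallest possible for 4 against 6). Rgs4 had a lower fold change than 13 of the 14 markers at 1 week, the exception being Nefh, the heavy neurofilament chain, at −0.95. At 5 weeks the difference averaged 0.24 ± 0.13 in bTBI retinas and 0.37 ± 0.045 in sham retinas (not tested), the groups overlapped, and Sncg, Nefl and Nefm had lower fold changes than Rgs4. Several markers on the list are also made by other retinal neurons, and their part in the difference was not tested.

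The same measure was taken for Rgs10 against the microglial markers. At 1 week 6 of 8 microglial markers were called higher, Cx3cr1, Tmem119, Aif1, C1qa, C1qb and Ctss, beside 1.27% of all genes. All 8 had a fold change above 0, with a median log2 fold change of 1.13. The 8 markers summed to 184 to 482 CPM in bTBI retinas, against 108 to 166 CPM in sham retinas. Rgs10 had a lower fold change than all 8. Its log2(CPM + 1) minus the microglial mean was −1.31 ± 0.13 in bTBI retinas and −0.48 ± 0.065 in sham retinas (SD, n = 6 each). The difference was −0.83 with no overlap (exact permutation test, two-sided, p = 0.00216, again the smallest possible). Rgs10 itself was not lower in bTBI retinas, and the markers were listed with earlier results of these data known. The p therefore mostly restates the rise of the markers and tells nothing of Rgs10 alone. At 5 weeks 0 of the 7 measured microglial markers were called, and the measure was −1.05 ± 0.20 in bTBI retinas and −0.82 ± 0.24 in sham retinas (not tested). Which cells made Rgs10 in these retinas was not measured.

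**Figure D3:**
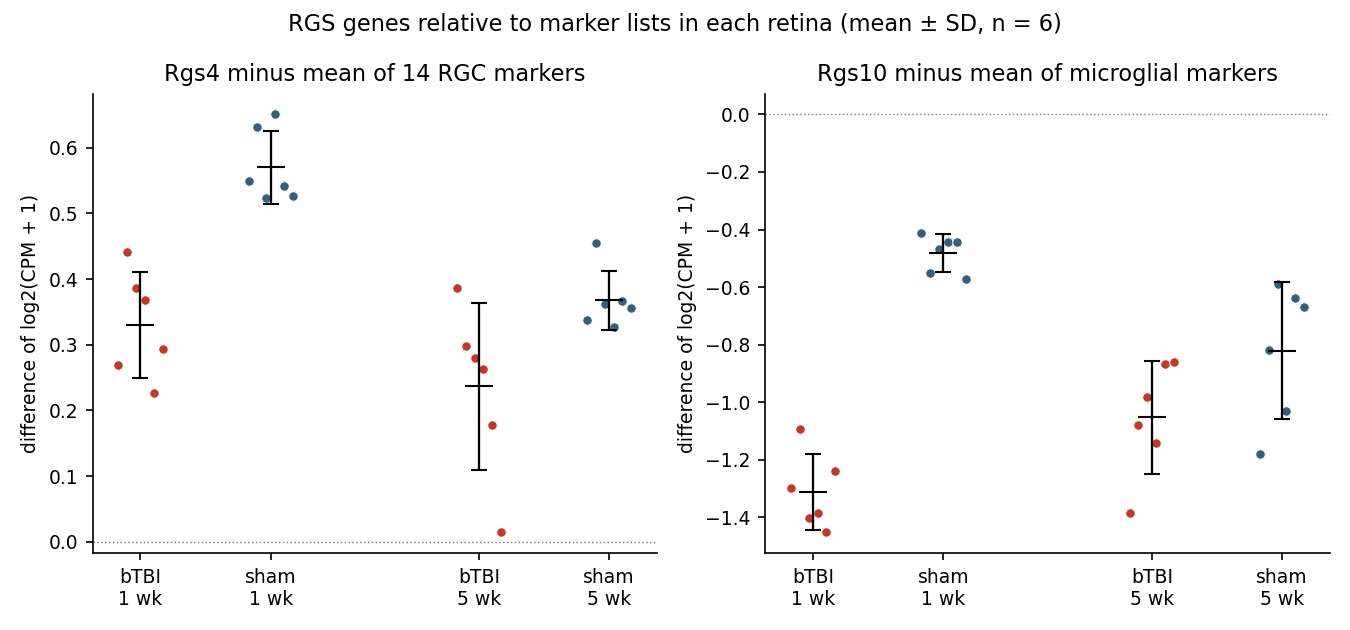
Log2(CPM + 1) of Rgs4 minus the mean of the RGC markers (left) and of Rgs10 minus the mean of the microglial markers (right) in each retina, bTBI left of sham at each timepoint. Points are retinas and black marks are mean ± SD (n = 6 per group). At 1 week bTBI and sham do not overlap in either panel, at means of 0.33 in bTBI against 0.57 in sham for Rgs4 and −1.31 in bTBI against −0.48 in sham for Rgs10, and at 5 weeks they overlap in both.

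The genes most like Rgs4 were sought over the 24 retinas after removing each group's mean, so that the likeness reflects variation within groups. Among 11164 genes the 5 with the highest Pearson correlation were Cplx1 (0.92), a complexin of synaptic vesicle release, Vsnl1 (0.92), a neuronal calcium sensor, Pvalb (0.91), the calcium buffer parvalbumin, Chrna6 (0.90), a nicotinic receptor subunit and one of the RGC markers, and Fgf1 (0.88), a growth factor. The 13 RGC markers with enough signal lay between 0.55 and 0.90. Of the RGS genes Rgs2 was the most like Rgs4 (0.58), Rgs8 (0.20) and Rgs7 (0.18) were lower, and Rgs9 (−0.46), Rgs11 (−0.39) and Rgs20 (−0.52) ran the other way. These values describe 24 retinas that share library composition within a group. The part of differences in RGC signal among retinas was not tested. All 5 genes were lower in bTBI retinas at 1 week, with log2 fold changes between −1.19 and −0.62, where 50.1% of all genes were below 0. The search used these same retinas, so this is a description and no separate support.

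The RGS genes outside the set were measured as far as the tables hold them. Of 11 others, 6 were in the 1-week table and 7 in the 5-week table, and 0 passed at either timepoint. At 1 week the log2 fold changes were −0.37 ± 0.17 for Rgs13, −0.18 ± 0.094 for Rgs19, −0.10 ± 0.052 for Rgs6, −0.09 ± 0.074 for Rgs12, −0.05 ± 0.043 for Rgs3 and 0.17 ± 0.060 for Rgs5. Rgs5, the R4 member near Rgs4 on chromosome 1 with a cysteine codon at the same place (TGT, against TGC in Rgs4), thus lay on the other side of 0. It was at 117 ± 6.32 CPM in bTBI retinas and 104 ± 9.69 CPM in sham retinas (limma, adjusted p = 0.121). At 5 weeks the 7 values lay between −0.14 for Rgs6, the fourth R7 member, and 0.05 for Rgs5, with Rgs22 at −0.07.

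The RGS partners, which apart from Ppp1r9b hold R7 proteins in place or stable, had 0 of 6 called at both timepoints. Gnb5, the G beta subunit that all R7 proteins need, was at 659 ± 31.9 CPM in bTBI retinas and 658 ± 48.0 CPM in sham retinas at 1 week (log2 fold change 0.0039 ± 0.054). Rgs7bp, a membrane anchor of Rgs7, had the lowest value, at 52.4 ± 5.56 CPM in bTBI retinas and 63.2 ± 5.78 CPM in sham retinas (−0.27 ± 0.074, limma, adjusted p = 0.0424). 5 of its 6 bTBI retinas lay below every sham retina, and bTBI replicate 2, at 62.2 CPM, did not. Gpr158, an orphan receptor that binds R7 proteins, was at −0.19 ± 0.073 at 1 week and −0.19 ± 0.051 at 5 weeks, and Gpr179, its relative in ON bipolar cells, at 0.08 ± 0.10 and 0.01 ± 0.039. Rgs9bp was at 0.02 ± 0.081 at 1 week and 0.01 ± 0.032 at 5 weeks, and Ppp1r9b, the scaffold spinophilin, at −0.07 ± 0.036 and −0.06 ± 0.037.

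Next the substrates, effectors and receptors around the RGS proteins were examined. At 1 week 0 of 14 G alpha genes, 0 of 14 G beta and gamma genes, 0 of 16 effectors (adenylyl cyclases, phospholipases C beta and GIRK channels) and 0 of 10 receptor kinases and arrestins passed. Their median log2 fold changes were 0.01, −0.02, −0.12 and 0.01 in that order. Of 32 receptors that couple to Gi/o or Gq, 2 were lower and 0 higher, with a median of −0.07. At 5 weeks 1 of 14 G alpha genes was lower, and 0 of 15 G beta and gamma genes, 0 of 16 effectors, 0 of 10 receptor kinases and arrestins and 0 of 30 receptors passed. Over these lists together with the other RGS genes and the partners, 2 of 98 genes were lower at 1 week, beside 0.985% of all genes, and 1 of 98 at 5 weeks, beside 0.823%. At an adjusted p under 0.05, 15 of 98 were lower and 2 higher at 1 week, beside 3.06% of all genes lower and 3.02% higher. An unadjusted p under 0.05 (limma) was reached by 30 lower and 9 higher list genes at 1 week and by 18 lower and 4 higher at 5 weeks. Over all genes, in either direction, it was reached by 2575 of 14922 at 1 week and by 1739 of 15920 at 5 weeks. At 0.005 DESeq2 called 9 lower and 2 higher at 1 week (2.17% and 2.45% of all genes), and edgeR 2 lower and 0 higher (0.925% and 1.32%). At 5 weeks DESeq2 called 4 lower and edgeR 1, and 0 were higher with either. Over all genes at 5 weeks DESeq2 called 221 lower and 15 higher of 14993, and edgeR 125 lower and 2 higher of 15920.

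The 2 receptors were Htr1b and Oprl1, both coupled to Gi/o. Htr1b, the serotonin 1B receptor, held 5.11, 7.21, 6.96, 7.07, 4.67 and 7.11 CPM in bTBI retinas at 1 week, against 10.9, 11.3, 11.1, 10.04, 11.6 and 12.4 CPM in sham retinas. The groups did not overlap, and the log2 fold change was −0.75 ± 0.10 (limma, adjusted p = 0.000426). Oprl1, the nociceptin receptor, ranged over 10.5 to 13.4 CPM in bTBI retinas (median 12.2), against 15.1 to 17.1 CPM in sham retinas (median 16.2), and its log2 fold change was −0.39 ± 0.071 (adjusted p = 0.00303). Oprl1 lost its call without both lens-rich retinas (adjusted p = 0.0290) and without each single retina except bTBI replicates 1 and 2 (adjusted p 0.00528 to 0.0103). It also lost its call with library totals (adjusted p = 0.00525) and with a replicate block (adjusted p = 0.0105). At 5 weeks Htr1b was at −0.50 ± 0.11 (adjusted p = 0.0123) and Oprl1 at −0.26 ± 0.072 (adjusted p = 0.0679). Whether either fold differed between timepoints was not tested.

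Gnal, the Golf alpha subunit that stimulates adenylyl cyclase and is no substrate of most RGS proteins, was the G alpha gene called at 5 weeks. It held 31.8, 35.8, 32.6, 34.6, 35.2 and 33.8 CPM in bTBI retinas, against 38.9, 43.8, 40.8, 42.6, 41.8 and 40.2 CPM in sham retinas. No bTBI retina reached the sham range, and the log2 fold change was −0.28 ± 0.044 (limma, adjusted p = 0.000707). A joint fit of the 24 retinas did not call it (adjusted p = 0.0573). At 1 week Gnal was at −0.47 ± 0.094 (adjusted p = 0.00563). Of the main retinal substrates neither passed at 1 week. Gnat1, rod transducin, was at 0.05 ± 0.099 (adjusted p = 0.883), and Gnao1, the Go alpha subunit of ON bipolar cells and other neurons, at −0.14 ± 0.047 (adjusted p = 0.106).

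**Figure D4:**
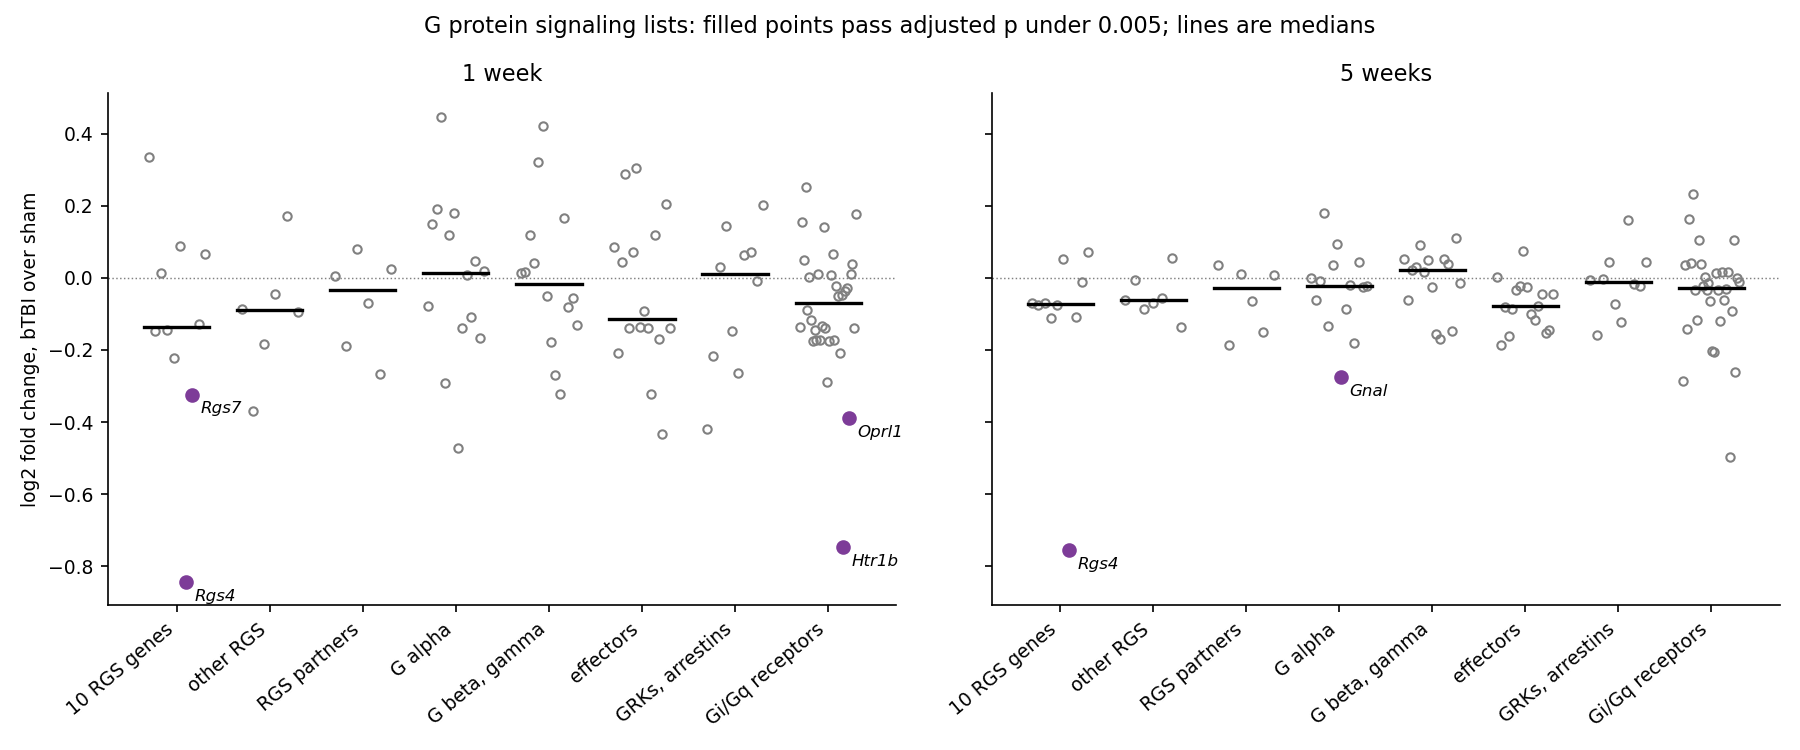
Log2 fold change of bTBI over sham (y axis) for every measured gene of the 10 RGS genes and 7 lists of G protein signaling genes at 1 week (left) and 5 weeks (right). Filled points pass an adjusted p under 0.005 and carry names, open points do not, and black lines are list medians, from −0.14 to 0.01 at 1 week. Rgs4 at 5 weeks is drawn as a description because that contrast chose the set.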

How the data were processed

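The study extracted RNA from single retinas and sequenced stranded poly(A) libraries. Reads were aligned to the mouse genome (GRCm38, mm10 in the submitters' notes) with STAR and counted per gene with featureCounts, and the authors used edgeR. The strand setting of the counting is not given in the sources used here. The deposited values are a signal that the authors scaled as counts relative to an effective library size (CPM). Within each library 100% of values were whole multiples of the value of 1 read (tolerance 0.01 of a step), which returned the reads for edgeR 4.0.16 and DESeq2 1.42.0 as alternatives.

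Each timepoint was fitted alone with limma 3.58.1 on log2(CPM + 1), with a trended prior, Benjamini-Hochberg adjustment over all genes and a threshold of 0.005. Fold changes on this scale understate those of scarce genes. The method was tested on simulated data of 14922 genes, with the spread of sham retinas and with changes placed only in genes with many reads. At 1 week it recovered 92% of these genes when changed by 0.5 on the log2 scale and 16% when changed by 0.25. These rates do not cover genes as scarce as Rgs10. They also take no account of a wider spread in bTBI retinas, as Rgs4 had at 1 week. Two-sided exact permutation tests over retinas (Python 3 with NumPy) served the measures relative to markers. Symbols, exons and coding starts came from GENCODE M21. Each retina came from its own mouse, per the study's methods.

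The 10 genes and all gene lists were chosen with earlier results of these data known. Named were the 10 genes, the measured other RGS genes and partners, every gene of the 7 signaling lists past the threshold at either timepoint, and the 5 genes most like Rgs4. Rgs5, Gnat1, Gnao1, Arhgdig and the marker genes are named beside a member, some of them after their values were seen. The alternatives were other scalings, filters, pseudocounts and priors, a joint fit, a replicate block, and omission of retinas. Genes absent from a table were not analysed here, and 2 marker genes are not reported here.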

Additional observations from a re-analysis of the deposited data

Results flagged for a closer look

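5 values stood apart from the other 5 retinas of their group by Dixon's criterion, which chance alone meets in about 1 in 20 groups. The screen ran over each group of retinas for the RGS genes, their partners, the called signaling genes and the marker sums. Over so many groups chance alone would give several such values, so the 5 are listed and nothing is read from them. None was a level of the 10 RGS genes. Gnal had its highest bTBI value at 1 week in replicate 2, at 46.1 CPM, inside the sham range of 41.8 to 47.7 CPM. The same retina was the bTBI retina with the most Rgs4 and Rgs7. Rgs19 had its lowest sham value at 5 weeks at 2.36 CPM. Among the markers, the oligodendrocyte gene Mbp reached 2531 CPM and the summed macroglial genes 7845 CPM in bTBI replicate 3 at 1 week, and the lens genes summed to 599 CPM in a sham retina at 1 week.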

How the results depend on the processing

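Rgs4 stayed past the threshold at 1 week under all 23 alternatives, with log2 fold changes from −0.95 to −0.72 and adjusted p up to 0.00253, and its 5-week fold change lay between −0.82 and −0.70 (single omissions −0.95 to −0.77 at 1 week and −0.82 to −0.70 at 5 weeks). The 2 calls among the 10 RGS genes at 1 week became 1, Rgs4 alone, with a prior without trend, with a replicate block and without both lens-rich bTBI retinas, and 1 to 2 over single omissions, of which 9 of 12 lost Rgs7. Rgs4 relative to RGC markers (−0.26 to −0.20) kept its sign and an exact permutation p under 0.05 in all 16 alternatives. Rgs10 relative to microglial markers (−0.93 to −0.80) did so too, which again mostly restates the rise of the markers. Every alternative used the same marker lists, so none of them tests the choice of markers.

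Among the signaling lists the 2 lower calls at 1 week became 9 with DESeq2, 10 with all 24 retinas in a single fit, 4 with a robust prior, 1 without both lens-rich retinas and 15 at a threshold of 0.05, and 1 to 6 over single omissions, with 6 reached without bTBI replicate 2 and 1 without bTBI replicate 3, 4 or 5 or sham replicate 2, 3, 5 or 6. The 0 higher calls became 2 with DESeq2 and 2 at 0.05. At 5 weeks the 1 lower call became 4 with DESeq2, 2 with library totals, 2 with a robust prior and 6 at 0.05, and 1 to 3 over single omissions, with 3 reached without bTBI replicate 4 and 2 without bTBI replicate 5. The cause of these shifts was not tested.

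Retinas share replicate numbers across groups. Same-numbered retinas correlated between −0.25 and 0.54 at 1 week and between −0.11 and 0.15 at 5 weeks. Replicate 1 at 1 week and replicate 3 at 5 weeks were most like their own number, and the others were not. The retinas were treated as unpaired, though these correlations cannot exclude a pairing by number. With a replicate block, 1 of the 10 RGS genes passed at 1 week and 1 at 5 weeks, and 3 genes of the lists were lower at each timepoint (Arr3, Gnal and Htr1b at 1 week, without Oprl1, and Adora1, Gnal and Htr1b at 5 weeks). At 1 week 323 genes were lower and 365 higher with DESeq2, against 147 and 189 with limma, and at 5 weeks 221 were lower and 15 higher, against 131 and 2. Scarce genes such as Rgs10 limit what the depth can show.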
